A study of Mus musculus with 4 samples.

Results

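The subject here is the interaction between loss of Norrin and stabilization of endothelial beta-catenin in the mouse retina, read gene by gene from 4 RNA sequencing libraries. For each gene the response to stabilization was taken as a log2 ratio of FPKM (fragments per length of transcript and per size of library) after adding a pseudocount of 0.5, once where Norrin was lost and once where Ndp was intact. The second ratio was subtracted from the first, and the result is called the difference of differences. A value above 0 means a higher ratio of stabilized to unmodified retina in the Norrin-deficient background. Genes entered with a status of OK in all 4 libraries and a mean of at least 1 FPKM, without short RNA symbols, which kept 12905 of 23278 genes. Of these, 46 had a difference of differences of at least 2-fold in either direction, or 0.356% of the genes measured.

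The libraries were made from whole retina at postnatal day 10, from mice of a mixed strain that contains at least C57BL6 and 129. The groups were WT, NdpKO (called the knockout), Ctnnb1flex3/+;Pdgfb-CreER (called stabilized) and NdpKO;Ctnnb1flex3/+;Pdgfb-CreER (called the stabilized knockout). Mice of all groups, WT included, received 20 µg of 4HT, the active metabolite of tamoxifen, intraperitoneally at postnatal day 3. Each library pooled 3 batches of RNA, each from 4 to 8 retinas of 2 to 4 mice. Ctnnb1flex3 is an allele from which Cre removes the exon that holds the degradation signal of beta-catenin, and Pdgfb-CreER is a tamoxifen-dependent Cre driven by Pdgfb, which is active in endothelial cells. The labels name neither the flex3 allele nor the Cre for the WT and knockout groups, so the Cre is present wherever the stabilized allele is. Endothelial cells are a small part of the retina, so their genes were read at low levels.

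Norrin, the product of Ndp, is a secreted ligand of the receptor Frizzled-4, which acts with the co-receptor Lrp5 and the tetraspanin Tspan12. Binding stabilizes beta-catenin, which enters the nucleus and joins TCF/LEF factors at their target genes. In retinal vessels this pathway drives growth of the intraretinal capillary layers and maintains the blood-retina barrier. Stabilized beta-catenin acts downstream of the receptor, so the cross of both alleles asks whether the endothelial response to it differs with the presence of the ligand.

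With 1 library per group, the 4 group values use up every degree of freedom, and no difference of differences has a replicate check or a test. The authors deposited a lower and an upper bound for each FPKM, without naming their confidence level. These bounds were carried to the log2 scale and combined over the 4 libraries, and the resulting interval is given in brackets. It covers the uncertainty within the libraries and not the variation between pools of mice. The same number also equals the log2 ratio of the stabilized knockout to the stabilized retina minus that of the knockout to WT, so it can lie with any of the 4 libraries.

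Summed FPKM ran from 405525 to 427109 over the libraries, with read totals not given in the sources used here. In genes of 1 to 2 FPKM the upper bound lay a median of 30.6% to 31.2% above the value, so precision was alike in the 4. Defining markers of the retina were present, with Nrl, a rod transcription factor, between 624 and 704 FPKM. The lens crystallin Cryaa stayed at or under 0.853 FPKM. Crybb3, also a lens crystallin, was higher, at 2.98 FPKM in WT, 1.84 in stabilized, 3.46 in the knockout and 3.47 in the stabilized knockout. Ndp itself stood at 2.98 FPKM in WT, 2.35 in stabilized, 0.873 in the knockout and 0.869 in the stabilized knockout. Both knockout libraries thus had lower Ndp, and what remained was alike in them. Sex differed with the Ndp genotype. The X-inactivation transcript Xist was at 135 FPKM in WT and 130 in stabilized, against 1.25 and 1.28 in the knockout and the stabilized knockout. Ddx3y, on the Y chromosome, was at 0.0896 and 0.173 against 18.7 and 20.1. Within each Ndp background the pools therefore had matching sex markers, and the effects of Norrin background and of sex cannot be told apart in these libraries. The differences of differences of the genes themselves were 0.07 for Xist and -0.09 for Ddx3y.

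Stabilization went with at least 2-fold higher levels of 57 genes (0.442%) and lower levels of 12 (0.093%) where Norrin was lost. With Ndp intact the numbers were 38 (0.294%) and 16 (0.124%). The difference of differences had a median of 0.05, an interquartile range of -0.06 to 0.17 and a central 95% of -0.33 to 0.48 on the log2 scale. Across the 12905 genes the responses had a Pearson correlation of 0.48 and a Spearman rank correlation of 0.52, as a description, since genes are not independent replicates. The ratios share no library, but they share the normalization and the library preparation. Among 117 genes whose mean response was at least 1.5-fold upward, 78 passed 1.5-fold in both backgrounds, and the difference of differences of 90 (76.9%) stayed under 1.5-fold. Among 51 genes with a mean response at least 1.5-fold downward, the corresponding numbers were 20 and 32 (62.7%). Over all genes measured, only 247 (1.91%) had a difference of differences of at least 1.5-fold in either direction. Departures from equal responses were more frequent among these 117 and 51 genes than over all genes. The sets were not matched for level, and the part that low levels have in this was not tested.

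At 2-fold, 31 genes were higher (0.24%) and 15 lower (0.116%). The combined interval excluded 0 for 22 of the 31 and 10 of the 15, or 0.17% and 0.0775% of the genes measured. Whatever the size, it excluded 0 for 227 genes (1.76%). Low genes contributed more, with 1.34% past 2-fold among genes of 1 to 2 FPKM against 0.178% at 20 FPKM or more. Next to the threshold, Plcxd3 stood at 1.003 and 4930471I20Rik at 1.006 inside, and A930005H10Rik at 0.997 and Gstk1 at 0.999 outside. On the other side Rtkn2 stood at -1.005 and Rdm1 at -1.093 inside, and Dcdc2b at -0.999 outside. Of the 31 higher genes, 11 passed 1.5-fold for stabilization in the knockout background alone and 9 in the intact background alone. A further 6 passed it in both in 1 direction, 4 in opposite directions and 1 in neither. Of the 15 lower genes, 6 passed in the knockout background alone, 7 in the intact background alone, 1 in opposite directions and 1 in neither. These patterns are partly set by the selection at 2-fold.

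**Figure D1:**
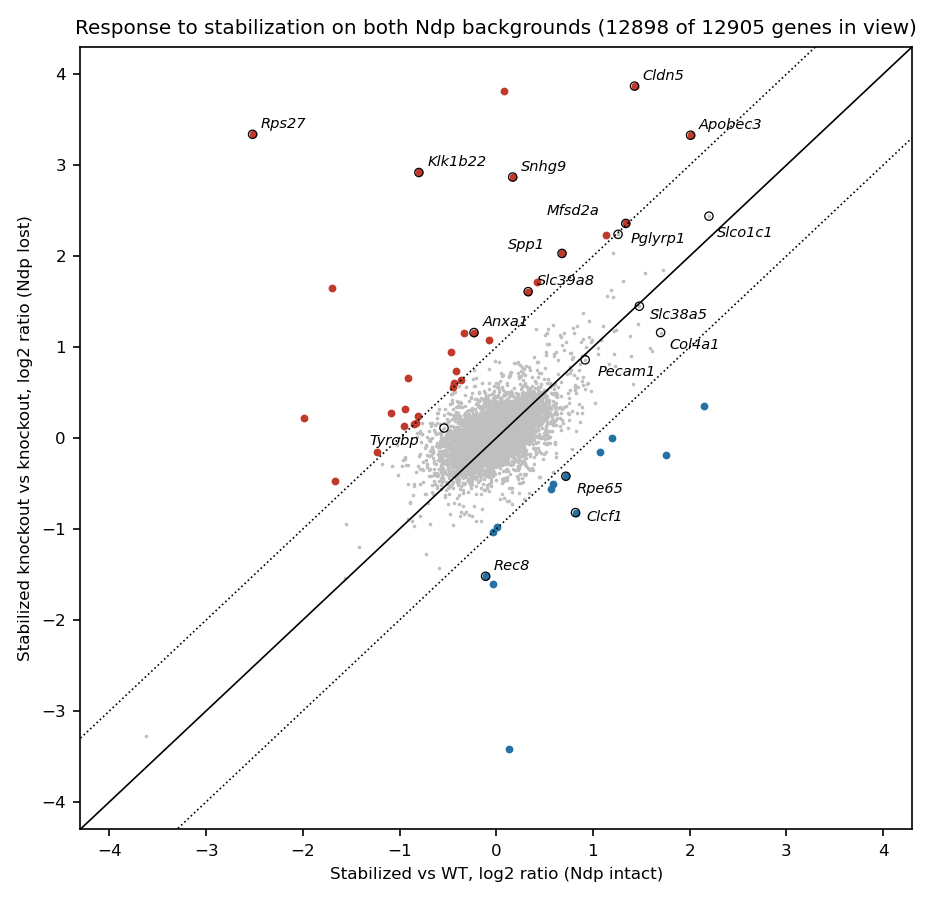
Each point is 1 of 12898 genes in view (7 lie outside), with the log2 ratio of stabilized to WT on the horizontal axis and that of stabilized knockout to knockout on the vertical axis. The solid line marks equal responses, the dotted lines a 2-fold difference of differences, red and blue points the genes past it, and circles the named genes; Cldn5 stands highest among the vascular genes, at 1.43 and 3.87.

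Blood-retina barrier genes held the clearest vascular members of the higher side. Of 23 listed genes 17 were measured, 4 were at least 1.5-fold higher in the difference of differences (1.29% of all genes) and 0 were at least 1.5-fold lower (0.62% of all genes). The 4 were Cldn5, Slc39a8, Mfsd2a and Pglyrp1, and the combined interval excluded 0 for each. Of the genes measured, 0.535% passed 1.5-fold upward with such an interval and 0.341% downward. The median of the 17 was 0.18, beside 0.05 over all genes. The list was assembled with results of these libraries known, so its direction is not independent evidence. In whole retina, a difference in the number of cells of a type and a difference in RNA per cell cannot be told apart, for these genes and for all below.

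Cldn5 encodes claudin-5, the main tight junction claudin of endothelial cells in brain and retina, on the plus strand of chromosome 16 from 18776847 to 18778262 (mm10). It was at 6.91 FPKM in WT (deposited bounds 5.18 to 8.63), 19.4 in stabilized (15.8 to 23.1), 0.675 in the knockout (0.378 to 0.971) and 16.7 in the stabilized knockout (13.5 to 20.0). The knockout library alone was very low, and the bounds of both stabilized libraries overlapped. The log2 ratio for stabilization was 1.43 with Ndp intact and 3.87 with Ndp lost, a difference of differences of 2.45 [1.82 to 3.09]. Read the other way, the log2 ratio for Ndp loss was -2.66 between the unmodified retinas and -0.21 between the stabilized ones.

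If both manipulations had acted as independent factors, the stabilized knockout would have had 2.66 FPKM of Cldn5, the level at which the difference of differences is 0. If they had added in FPKM, it would have had 13.2. The observed 16.7 FPKM lay far above the product and closer to the sum, whose value fell just under the lower bound of 13.5. The size of a log2 interaction thus depends on the scale for a gene that is very low in a single library. Its sign was the same on both scales for Cldn5.

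Mfsd2a, a lipid transporter of endothelium that restrains transcytosis, lies on the minus strand of chromosome 4 from 122946850 to 122961188. It was at 1.20 FPKM in WT, 3.80 in stabilized, 0.545 in the knockout and 4.86 in the stabilized knockout. The bounds of the stabilized libraries overlapped and those of the unmodified libraries did not. Its log2 ratios were 1.34 with Ndp intact and 2.36 with Ndp lost, and the difference of differences was 1.02 [0.37 to 1.67]. With a pseudocount of 1 it was 0.80, under 2-fold. The product of both effects gave an expected 2.14 FPKM and the sum 3.14, both under the observed lower bound of 3.72.

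Slc39a8 encodes a zinc and manganese transporter. It was at 0.977 FPKM in WT, 1.35 in stabilized, 0.174 in the knockout and 1.56 in the stabilized knockout. As for Cldn5, the knockout was the library that stood apart. The difference of differences was 1.29 [0.66 to 1.92], from log2 ratios of 0.33 with Ndp intact and 1.61 with Ndp lost. It was 2.17 with a pseudocount of 0.1 and 0.88, under 2-fold, with 1. Slc39a8 shares its deposited locus with another gene, so its level is uncertain.

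Pglyrp1 encodes a peptidoglycan recognition protein. It was at 0.426 FPKM in WT, 1.72 in stabilized, 0.234 in the knockout and 2.96 in the stabilized knockout. The bounds overlapped within both pairs, the unmodified and the stabilized. The difference of differences of 0.98 [0.04 to 1.91] had the widest interval of the 4. Abcg2, an efflux transporter, stood at 0.58 [0.06 to 1.10], just under the 1.5-fold size.

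The 12 barrier genes other than these 5 ran from -0.18 for Lsr, a tricellular junction receptor, to 0.39 for Itm2a, a membrane protein gene. Itm2a was at 24.8 FPKM in WT, 21.4 in stabilized, 20.5 in the knockout and 23.4 in the stabilized knockout, with an interval of -0.08 to 0.86. For some of the 12 the value depended on the scale. Slco1c1, a transporter of thyroid hormone and organic anions, was at 0.396 FPKM in WT, 3.63 in stabilized, 0.0206 in the knockout and 2.32 in the stabilized knockout. Its difference of differences was 0.23 with the pseudocount of 0.5, 1.42 with 0.1 and -0.03 with 1, and on the linear scale it was -0.934 FPKM, so no direction is given. Slc38a5, an amino acid transporter, was at 0.611 FPKM in WT, 2.60 in stabilized, 0.172 in the knockout and 1.33 in the stabilized knockout, with -0.03 at 0.5 and 0.47 at 0.1. Slc38a5 and Slco1c1 were both lower in the stabilized knockout than in the stabilized retina. The glucose transporter gene Slc2a1 stood at 0.08, and Slc7a5, the large neutral amino acid transporter, at -0.02. Against the expectation from the product of both effects, 11 of the 17 barrier genes were above (64.7%), as were 62.7% of all genes. Against the sum, 10 were above (58.8%), and 62.5% of all genes were.

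The other 6 of the 23 barrier genes had means under 1 FPKM and are outside the 12905. The efflux pump gene Abcb1a was at 0.287 FPKM in WT, 0.893 in stabilized, 0.0665 in the knockout and 1.02 in the stabilized knockout. Foxq1, a forkhead factor induced by Wnt signalling in brain endothelium, was at 0.366, 1.52, 0.0662 and 1.22 FPKM in the same order. Foxf2, a forkhead factor of brain vessels, was at 0.507, 1.48, 0.184 and 1.61 FPKM. Abcb1a, Foxq1 and Foxf2 were lowest in the knockout. Their differences of differences were 0.60, 0.38 and 0.65 with a pseudocount of 0.5, but 1.39, 1.19 and 1.21 with 0.1 and 0.36, 0.17 and 0.42 with 1, so their size rests on the pseudocount. On the linear scale that of Foxq1 was -0.00272 FPKM, so no direction is given for it. The tight junction gene Ocln stood at 0.38, the organic anion transporter gene Slco1a4 at 0.37 and the efflux transporter gene Abcc4 at 0.17 with the pseudocount of 0.5.

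**Figure D2:**
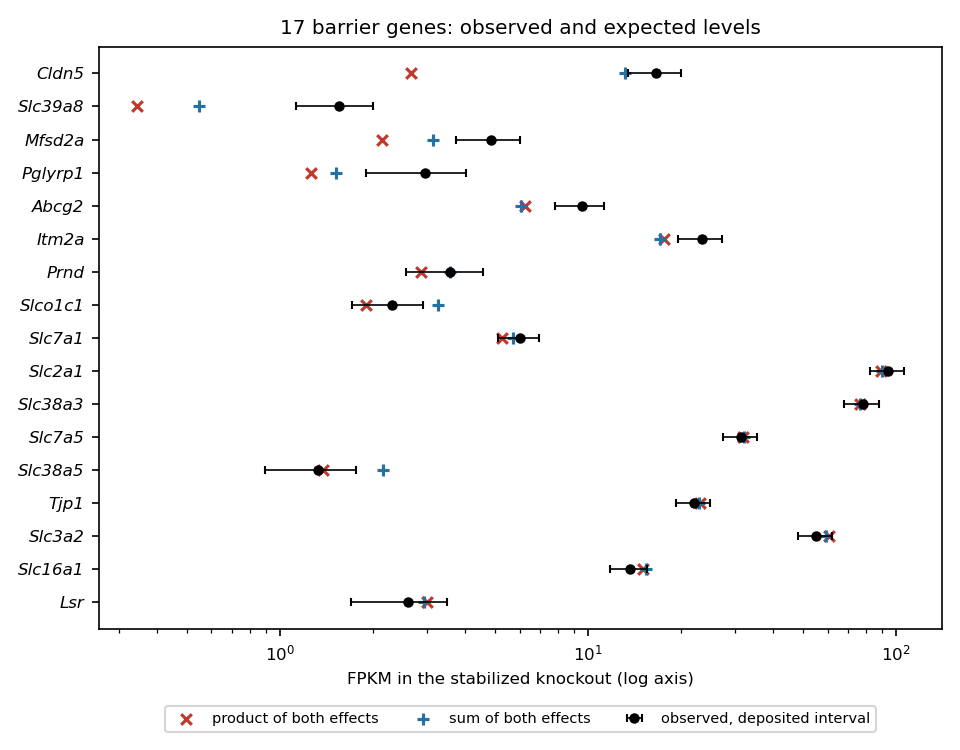
Each line is 1 of the 17 barrier genes measured, and the logarithmic axis gives FPKM in the stabilized knockout. Black points with bars are the observed level and its deposited bounds, red crosses the level expected from the product of both effects and blue plus signs that from their sum; Cldn5 was observed at 16.7 FPKM beside 2.66 and 13.2.

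Because beta-catenin acts through TCF/LEF factors, the 250 bases before the start of transcription were searched for CTTTGA or CTTTGT, the core these factors bind, on either strand, with overlapping matches allowed. Sequences are from RefSeq on GRCm38.p6, the mm10 assembly, written 5′ to 3′ on the gene's strand, with any match on either strand in capitals. Shown are the 4 barrier genes past 1.5-fold (Cldn5, Mfsd2a, Slc39a8 with its pair of annotated starts, and Pglyrp1). Also shown are the transporters Slco1c1 and Slc38a5, at 0.23 and -0.03 with the pseudocount of 0.5. Slco1c1 was past 1.5-fold with a pseudocount of 0.1, at 1.42. Cldn5 is at chr16:18776597-18776846 (plus), Mfsd2a at chr4:122961189-122961438 (minus), Slc39a8 at chr3:135825029-135825278 and chr3:135825407-135825656 (both plus), Pglyrp1 at chr7:18884440-18884689 (plus), Slco1c1 at chr6:141524104-141524353 (plus) and Slc38a5 at chrX:8271131-8271380 (plus).
Cldn5: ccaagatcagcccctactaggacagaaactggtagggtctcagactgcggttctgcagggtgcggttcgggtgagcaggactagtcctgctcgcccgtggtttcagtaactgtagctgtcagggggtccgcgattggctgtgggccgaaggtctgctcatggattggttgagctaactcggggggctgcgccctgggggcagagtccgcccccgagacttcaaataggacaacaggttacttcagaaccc
Mfsd2a: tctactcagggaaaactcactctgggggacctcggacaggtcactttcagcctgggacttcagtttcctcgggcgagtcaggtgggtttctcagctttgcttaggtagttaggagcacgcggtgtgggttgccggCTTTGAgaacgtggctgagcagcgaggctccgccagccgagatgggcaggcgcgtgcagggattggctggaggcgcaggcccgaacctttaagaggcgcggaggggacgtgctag
Slc39a8, upstream start: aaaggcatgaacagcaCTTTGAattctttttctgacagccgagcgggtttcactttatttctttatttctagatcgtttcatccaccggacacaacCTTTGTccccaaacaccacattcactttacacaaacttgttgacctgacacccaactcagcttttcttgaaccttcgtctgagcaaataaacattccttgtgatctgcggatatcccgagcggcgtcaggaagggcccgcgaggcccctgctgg
Slc39a8, downstream start: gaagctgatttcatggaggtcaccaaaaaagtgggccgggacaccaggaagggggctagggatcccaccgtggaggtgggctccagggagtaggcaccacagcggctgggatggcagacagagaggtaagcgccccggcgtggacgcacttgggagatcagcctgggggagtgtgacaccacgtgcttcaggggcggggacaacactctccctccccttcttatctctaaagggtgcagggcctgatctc
Pglyrp1: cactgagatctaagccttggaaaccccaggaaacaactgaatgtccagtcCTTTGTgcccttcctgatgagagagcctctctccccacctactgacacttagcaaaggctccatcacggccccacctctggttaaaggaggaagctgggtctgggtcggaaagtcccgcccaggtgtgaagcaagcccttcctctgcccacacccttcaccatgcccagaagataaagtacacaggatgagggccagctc
Slco1c1: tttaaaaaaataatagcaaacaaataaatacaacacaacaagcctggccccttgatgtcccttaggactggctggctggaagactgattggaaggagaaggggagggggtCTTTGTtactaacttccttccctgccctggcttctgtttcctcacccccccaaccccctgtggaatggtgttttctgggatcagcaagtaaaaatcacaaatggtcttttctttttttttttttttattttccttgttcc
Slc38a5: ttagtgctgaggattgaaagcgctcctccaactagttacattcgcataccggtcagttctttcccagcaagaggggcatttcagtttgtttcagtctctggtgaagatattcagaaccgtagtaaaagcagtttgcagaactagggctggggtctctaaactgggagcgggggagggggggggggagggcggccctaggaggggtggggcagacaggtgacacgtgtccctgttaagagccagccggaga

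The Mfsd2a window holds 1 core starting at base -115 from the start of transcription, the upstream Slc39a8 window 2 at -234 and -154, that of Pglyrp1 1 at -200 and that of Slco1c1 1 at -140, while the Cldn5, downstream Slc39a8 and Slc38a5 windows hold none. A match therefore occurs on either side of this small comparison. A promoter was found for 18 of the 31 higher genes, and 7 of their 21 promoters held a core (33.3%). Of the lower genes, 4 of 15 had a promoter, of which 2 held a core. Over all genes measured, 2453 of 11787 promoters held one (20.8%). A match is a stretch of letters and not a site shown to be bound.

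**Figure D3:**
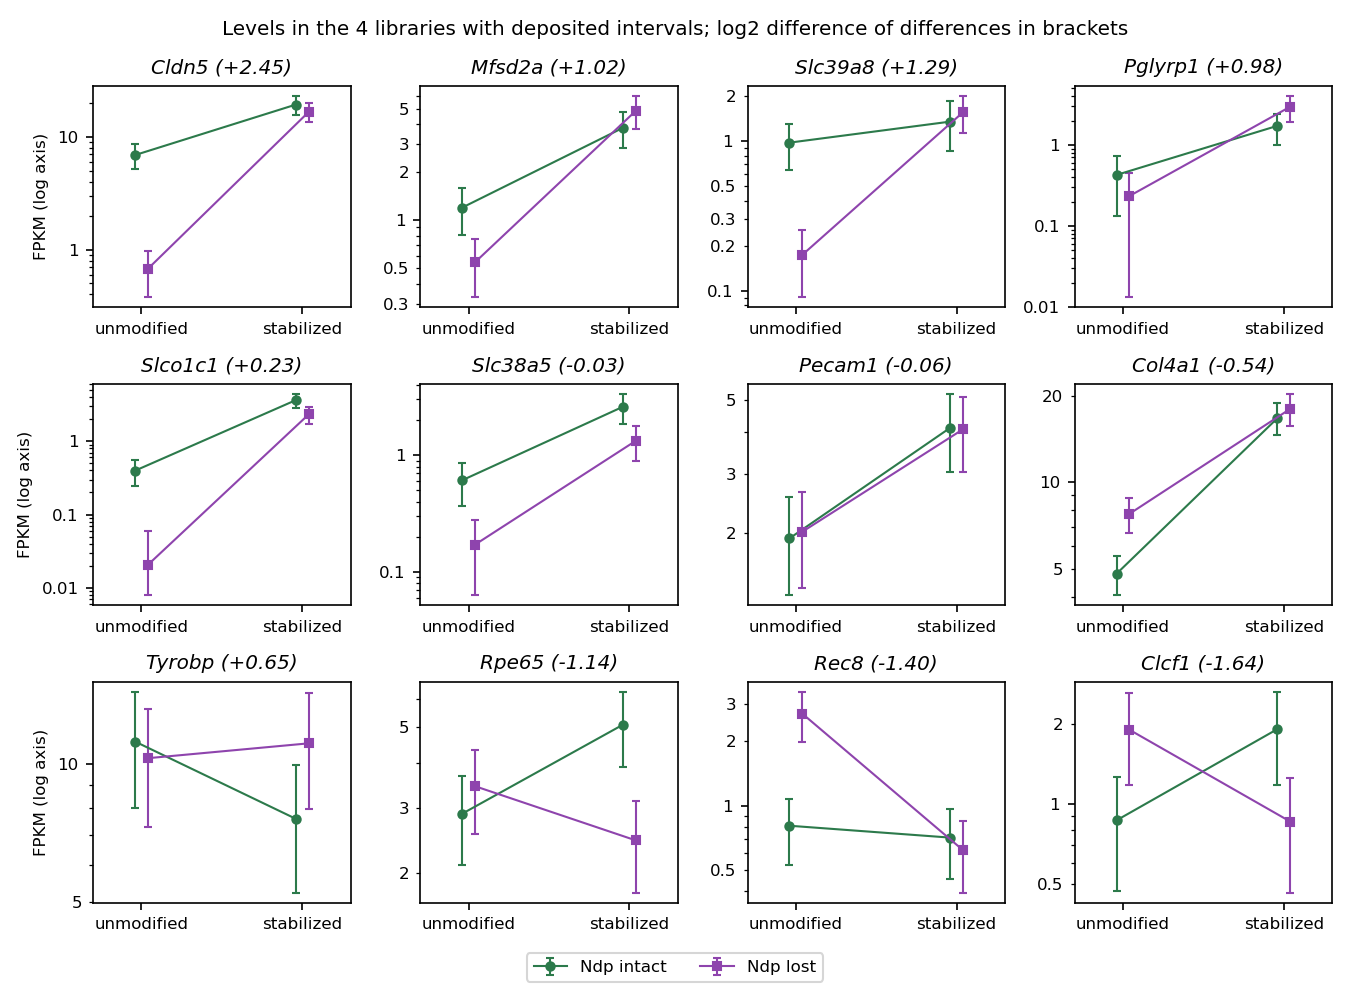
Each panel gives the FPKM of 1 gene on a logarithmic axis in the unmodified and the stabilized retina, with Ndp intact (green circles) and Ndp lost (purple squares), and bars for the deposited bounds; the lower bound of 0 for Slco1c1 in the knockout is cut short. Lines that nearly coincide show like responses, as for Pecam1 (-0.06), and a purple line steeper than the green one shows a higher response where Norrin was lost, as for Cldn5 (2.45).

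Pan-endothelial genes split. Of 28 listed, 17 were measured, 2 were at least 1.5-fold higher (1.29% of all genes) and 0 lower (0.62%), and the median was 0.13. Of the 17, 10 were above 0 (58.8%), beside 62.7% of all genes. Eltd1, an adhesion receptor of angiogenic endothelium, was at 1.36 FPKM in WT, 3.79 in stabilized, 0.532 in the knockout and 3.72 in the stabilized knockout. It had the Cldn5 shape, with a low knockout library and level stabilized libraries, at 0.82 [0.28 to 1.36]. Cd34, a sialomucin of endothelium, was at 0.63 [-0.02 to 1.32] and shares its deposited locus.

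The junctional adhesion gene Pecam1 was at 1.93 FPKM in WT, 4.12 in stabilized, 2.02 in the knockout and 4.08 in the stabilized knockout. Its response was the same size in both backgrounds, with a difference of differences of -0.06. Cdh5, encoding VE-cadherin, stood at -0.49 [-1.02 to 0.06]. The levels of Pecam1 in the unmodified libraries were alike, while those of Cldn5 were not.

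Vascular basement membrane genes leaned the other way. Of 15 measured, 11 were below 0, as were 37.3% of all genes, and the median was -0.18. At least 1.5-fold lower was 1 (0.62% of all genes), and 0 were higher (1.29%). The combined interval excluded 0 for 4 of the 15 (1.76% of all genes), of which Col4a1, Col4a2 and Fn1 were below 0 and Sparc above it. Col4a1 and Col4a2 encode the paired chains of vascular collagen IV and lie head to head on chromosome 8. Col4a1 was at 4.81 FPKM in WT, 16.7 in stabilized, 7.77 in the knockout and 18 in the stabilized knockout. Both stabilized libraries were level and the knockout was above WT, the reverse of Cldn5. Its log2 ratios were 1.70 with Ndp intact and 1.16 with Ndp lost, a difference of differences of -0.54 [-0.91 to -0.16].

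Col4a2 was at 3.69 FPKM in WT, 12.1 in stabilized, 5.98 in the knockout and 12.4 in the stabilized knockout. The order of the libraries was that of Col4a1, and the difference of differences was -0.60 [-0.99 to -0.21]. Fn1, encoding fibronectin, was at -0.44 [-0.81 to -0.08]. Sparc, a matrix glycoprotein made by several retinal cell types, was at 0.40 [0.00 to 0.80], a borderline interval whose lower end rounds to 0.00.

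Genes of fenestrated and tip-cell endothelium had a median of -0.01 over 13, with 0 members past 1.5-fold in either direction (1.91% of all genes). Plvap, the diaphragm protein of fenestrae, was at 1.72 FPKM in WT, 1.33 in stabilized, 4.40 in the knockout and 2.22 in the stabilized knockout. It was highest in the knockout, and its log2 ratios for stabilization were -0.28 with Ndp intact and -0.85 with Ndp lost. The difference of differences of -0.57 [-1.26 to 0.12] had an interval that included 0. Igfbp3 and Adm, secreted products of tip cells and of hypoxic tissue, stood at -0.55 and -0.49. The median was -0.08 for genes of arteries and veins and 0.05 for caveolar genes.

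Mural genes, which mark pericytes and smooth muscle, had a median of -0.12 over 8. At least 1.5-fold higher was 1 (1.29% of all genes), and 0 were lower (0.62%). Rgs5, a regulator of G protein signalling in pericytes, was at 17.6 FPKM in WT, 25 in stabilized, 9.63 in the knockout and 21.7 in the stabilized knockout. The knockout was again the low library, with a difference of differences of 0.63 [0.15 to 1.13]. Acta2, smooth muscle actin, was at 0.392 FPKM in WT, 1.53 in stabilized, 0.756 in the knockout and 3.38 in the stabilized knockout. It was highest in the stabilized knockout and stood at 0.44 [-0.20 to 1.10]. Pdgfrb, the pericyte receptor for PDGF-B, stood at -0.32 [-0.90 to 0.23].

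Among ligand, receptors and targets of the pathway, 8 of 10 listed Norrin pathway genes and 9 of 19 listed canonical Wnt targets were measured. The remaining ones, Lef1 and Notum among them, had means under 1 FPKM, so no statement covers them. Of the genes measured, 0 of 8 pathway genes and 0 of 9 targets passed 1.5-fold. Of all genes measured, 1.91% did so in either direction. The pathway genes ran from 0.05 to 0.28 with a median of 0.15. Ctnnb1, encoding beta-catenin, was at 0.10, the receptor gene Fzd4 at 0.21, the co-receptor gene Lrp5 at 0.18 and Tspan12 at 0.27. The 9 measured targets had a median of 0.12. Nkd1, a feedback inhibitor, was at 7.99 FPKM in WT, 6.65 in stabilized, 6.75 in the knockout and 8.63 in the stabilized knockout, or 0.58 [0.15 to 1.02]. Apcdd1, a membrane inhibitor of Wnt signalling, was at 12.1, 14.5, 9.27 and 16.5 FPKM in the same order, or 0.55 [0.09 to 1.00].

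Axin2, the best known feedback target, was at 5.37 FPKM in WT, 5.35 in stabilized, 5.30 in the knockout and 5.80 in the stabilized knockout. The 4 levels were nearly equal, and the difference of differences was 0.12 [-0.35 to 0.59]. Many other retinal cells also express these genes. VEGF and angiopoietin genes had a median of -0.01, with Vegfa, the hypoxia-induced growth factor, at -0.05. BMP and TGF-beta genes had a median of -0.11 over 10, with 1 at least 1.5-fold lower (0.62% of all genes). Their single member past 1.5-fold, the inhibitor Smad6, stood at -0.63 [-1.29 to 0.04].

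**Figure D4:**
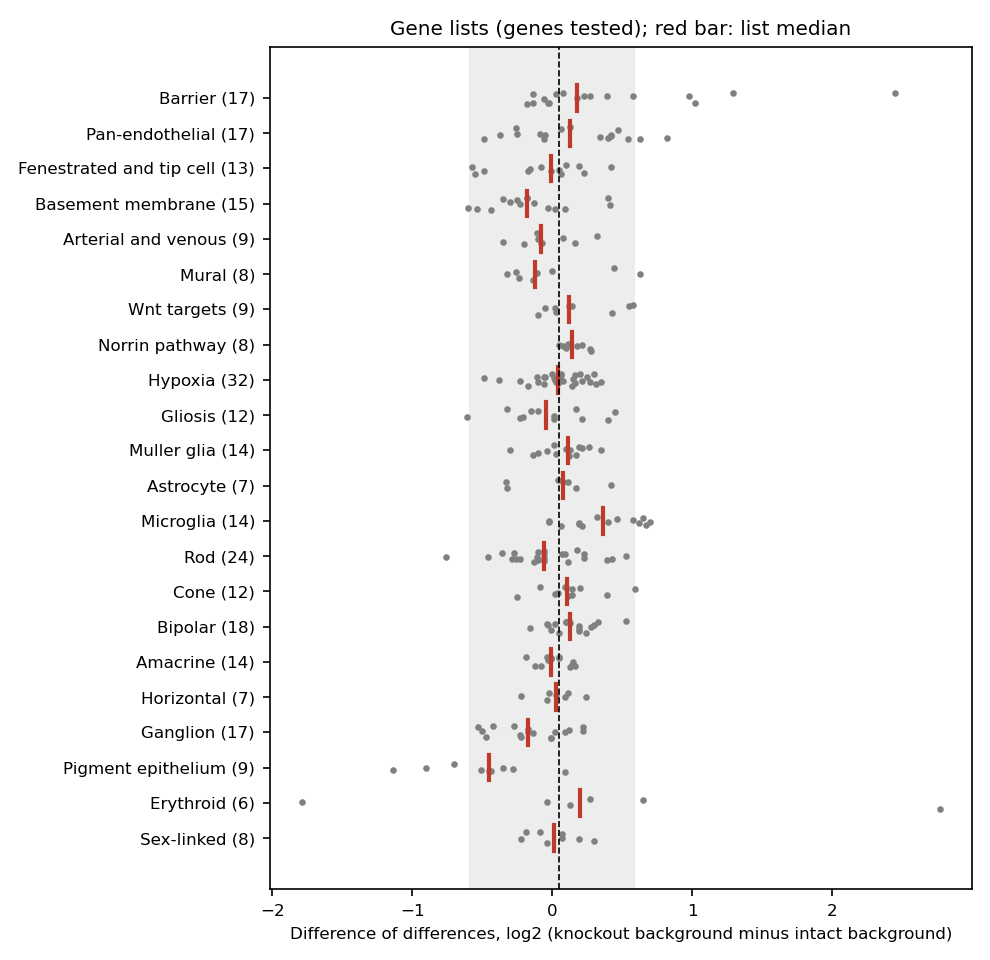
Each grey point is 1 gene measured of the list named at the left (number of genes in brackets), placed by its difference of differences on the log2 scale; the red bar is the list median, the dashed line the median of all genes (0.05) and the shaded band the range under 1.5-fold. Barrier genes reach 2.45, microglial genes sit to the right with a median of 0.36 and pigment epithelial genes to the left with one of -0.45.

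Microglial genes leaned to the higher side. Of 17 listed, 14 were measured, 12 were above 0 (62.7% of all genes) and 4 passed 1.5-fold upward (1.29% of all genes). The median was 0.36. Tyrobp, the adaptor of microglial receptors, was at 11.2 FPKM in WT, 7.59 in stabilized, 10.3 in the knockout and 11.1 in the stabilized knockout. The stabilized library was the low one, and the difference of differences was 0.65 [-0.18 to 1.49]. Fcer1g stood at 0.67, Trem2, the lipid-sensing receptor, at 0.62 and P2ry12, the purine receptor of resting microglia, at 0.70.

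None of the 14 had a combined interval that excluded 0, beside 1.76% of all genes. The defining microglial markers Cx3cr1 and C1qa stood at 0.21 and -0.02. The summed level of the list was 90.4 FPKM in WT, 82.8 in stabilized, 79.1 in the knockout and 91.6 in the stabilized knockout. Lyz2, the lysozyme of macrophages and microglia, is not on the list. It was at 6.89 FPKM in WT, 3.77 in stabilized, 5.17 in the knockout and 5.40 in the stabilized knockout. Its difference of differences was 0.85 [0.12 to 1.59], with the stabilized library low as for Tyrobp. Cd52, a surface peptide of leukocytes that is also outside the list, stood at 1.06 [-0.07 to 2.22]. Lyz2 and Cd52 were picked with their values known, so they do not count toward the list.

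Genes of the pigment epithelium, a tissue next to the retina that can adhere to it at dissection, leaned to the lower side. Of 14 listed, 9 were measured, 8 were below 0 (37.3% of all genes), 3 were at least 1.5-fold lower (0.62% of all genes) and the median was -0.45. The listed genes outside the 9 had means under 1 FPKM. Of these, Mlana went the other way, at 0.778 FPKM in WT, 0.575 in stabilized, 0.227 in the knockout and 1.16 in the stabilized knockout. Best1, Lrat, Mitf and Slc45a2 stayed at or under 0.89 FPKM. Rpe65, the isomerase of the visual cycle, was at 2.90 FPKM in WT, 5.09 in stabilized, 3.45 in the knockout and 2.45 in the stabilized knockout. The stabilized library was the high one. The difference of differences was -1.14 [-1.82 to -0.47].

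The melanosome gene Pmel stood at -0.90 [-1.52 to -0.29] and shares its deposited locus. Ttr, encoding transthyretin, was at 30.1 FPKM in WT, 33.5 in stabilized, 34.3 in the knockout and 23.4 in the stabilized knockout, or -0.70 [-1.17 to -0.23]. The summed list was at 68.7 FPKM in WT, 83.5 in stabilized, 76.9 in the knockout and 61.0 in the stabilized knockout. The part that carried-over pigment epithelium has in the other genes past 2-fold was not tested.

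Retinal neurons and glia had medians close to that of all genes, from -0.06 in rods to 0.13 in bipolar cells, except for ganglion cells at -0.17. Of 17 ganglion cell genes 12 were below 0, beside 37.3% of all genes, and 0 passed 1.5-fold, beside 1.91%. Nefm, a neurofilament chain that shares its deposited locus, was at -0.47 [-0.89 to -0.05] and Pou4f2, a ganglion cell transcription factor, at -0.53 [-1.11 to 0.04]. Gnat1, the rod transducin, was at 239 FPKM in WT, 215 in stabilized, 401 in the knockout and 213 in the stabilized knockout. The knockout library alone was high, and the difference of differences was -0.76 [-1.20 to -0.30].

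Opn1mw, the green cone opsin, was at 20.1 FPKM in WT, 6.56 in stabilized, 18.3 in the knockout and 9.22 in the stabilized knockout. It was lower with stabilization in both backgrounds, and its difference of differences was 0.59 [-0.02 to 1.22]. Müller glia genes had a median of 0.11, hypoxia genes 0.05 and gliosis genes -0.05. Gfap, the intermediate filament of reactive glia, stood at -0.32 [-0.91 to 0.25], and the metallothionein Mt2 at -0.61 [-1.55 to 0.32].

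In 12 of the 31 higher genes, Cldn5, Mfsd2a and Slc39a8 among them, the deposited bounds overlapped between both stabilized libraries and were apart between WT and the knockout. The reverse held in 7, both pairs overlapped in 11 and both were apart in 1. The 31 were selected on the difference between these gaps, so a pair that is apart partly follows from the selection. These counts describe the 31 alone, with no share over all genes beside them. Spp1, encoding the secreted phosphoprotein osteopontin, was at 4.77 FPKM in WT, 7.94 in stabilized, 1.28 in the knockout and 6.79 in the stabilized knockout. It belonged to the 12, with a difference of differences of 1.36 [0.65 to 2.04]. Serpina3h also belonged to them. It comes from a cluster of similar serine protease inhibitor copies and is annotated as a transcribed unprocessed pseudogene. Its levels were 0.498 FPKM in WT, 1.69 in stabilized, 0.0278 in the knockout and 1.97 in the stabilized knockout, or 1.09 [0.52 to 1.64].

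In the 7 with the reverse pattern of bounds, the unmodified pair overlapped and the stabilized pair did not. Overlap does not make levels equal, since bounds were wide for some of the 7, such as Rps27. Anxa1, encoding the phospholipid-binding protein annexin A1, was at 2.55 FPKM in WT, 2.10 in stabilized, 2.04 in the knockout and 5.20 in the stabilized knockout. The stabilized knockout alone was high, and the difference of differences was 1.39 [0.68 to 2.11]. Apobec3, a cytidine deaminase gene that restricts retroviruses, was at 0.623, 4.01, 0.515 and 9.68 FPKM in the same order, or 1.32 [0.70 to 1.95]. It was higher with stabilization in both backgrounds.

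Apobec3 lies on chromosome 15 from 79891659 to 79915906, and Pdgfb, whose sequences drive the Cre, from 79995874 to 80014977 on the same chromosome. Pdgfb was at 1.14 FPKM in WT, 2.57 in stabilized, 1.11 in the knockout and 2.92 in the stabilized knockout, with a difference of differences of 0.19. Pdgfb was thus higher with stabilization by a like ratio in both backgrounds, unlike Apobec3, which shares its deposited locus with another gene. Slc25a37, a mitochondrial iron carrier, was at 4.93 FPKM in WT, 2.33 in stabilized, 5.01 in the knockout and 6.37 in the stabilized knockout. Here the stabilized library alone was low, and the difference of differences was 1.26 [0.75 to 1.79].

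Several of the largest values on the higher side, among genes with established symbols, belong to genes with close copies. Rps27, a ribosomal protein gene with many processed copies, was at 33.1 FPKM in WT, 5.37 in stabilized, 4.79 in the knockout and 53.2 in the stabilized knockout, or 5.86 [-0.46 to 11.17]. Its interval included 0. Rpl26 stood at 2.21 and Hba-a2 at 2.77, while Hba-a1, the twin of Hba-a2, stood at -0.04. Klk1b22, from a cluster of kallikrein genes with near-identical members, was at 0.674 FPKM in WT, 0.176 in stabilized, 0.189 in the knockout and 4.70 in the stabilized knockout, or 3.71 [2.88 to 4.51]. Amd1, which has a near-identical copy, was at 7.10 FPKM in the stabilized knockout and at or under 0.0363 in the others. These values are uncertain, with the division of fragments among copies not given in the sources used here. Snhg9, an antisense gene that shares its deposited locus, stood at 2.69 [-0.35 to 5.88], with an interval that included 0. A deposited locus shared with a further gene was found for 16 of the 31 higher and 8 of the 15 lower genes, and for 2480 of the 12905 genes measured (19.2%).

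Among the 15 lower genes, 5 are listed at 0 in at least 1 library, for which no fold is given. Clcf1, a cytokine of the interleukin-6 family, was at 0.869 FPKM in WT, 1.91 in stabilized, 1.90 in the knockout and 0.860 in the stabilized knockout. Each manipulation alone went with a higher level and both together with that of WT, so the log2 ratios were 0.82 and -0.82 and the difference of differences -1.64 [-2.52 to -0.74].

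Rec8, a meiotic cohesin gene, was at 0.807 FPKM in WT, 0.710 in stabilized, 2.70 in the knockout and 0.620 in the stabilized knockout. The knockout alone was high, at -1.40 [-2.02 to -0.77]. Rtkn2, encoding a rhotekin, was at 8.26, 8.11, 11.8 and 5.51 FPKM in the same order, or -1.01 [-1.46 to -0.56]. Sct, encoding the hormone secretin, and Rdm1, a DNA repair gene, were highest in both single manipulations, at -1.12 and -1.09.

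By library, the one farthest from the median of the other 3 was the knockout for 13 of the 31 higher genes. It was the stabilized knockout for 7, WT for 6 and stabilized for 5. For the 15 lower genes it was stabilized for 6, the stabilized knockout for 4, the knockout for 3 and WT for 2. No single library carried all of these values. The counts describe the genes past 2-fold alone, with no share over all genes beside them.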

How the data were processed

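RNA was measured in 4 pooled whole-retina libraries, 1 per genotype. The authors deposited FPKM for every gene, each with its bounds and a status. Per the submitters' processing notes, TopHat and Cuffdiff were used with mm10. These notes leave versions, annotation, read length, read totals, strand and the level of the bounds not given in the sources used here. Values in FPKM are relative within a library, so abundant RNA can shift all other genes. Columns were matched to samples by the number in the name and in the description, and 0 columns lay outside the series.

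Differences of differences were computed on log2(FPKM + 0.5), which understates the change of low genes. Of 23278 genes, 145 had a status other than OK in a library, 9983 a mean under 1 FPKM and 245 a symbol starting with Mir, Snor, Scarna or Rnu. The last prefix rule also removed Mirg. Bounds were combined as the root of the sum of squares of the log2 distances. Genes were counted at 2-fold and list members at 1.5-fold. The procedure was tested on simulated data.

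The members and the 32 gene lists were chosen with earlier results of these data known. Named genes were the 12 highest and 12 lowest without provisional symbols, up to 6 members per direction past 1.5-fold in vascular lists and up to 3 in others, and a set fixed with the lists; the text names a part of them, and a few are not reported here. Abcg2, Cd52, Eltd1, Lyz2, Serpina3h, Slc25a37, the genes next to the threshold, the provisional symbols and list members under 1.5-fold that lie outside the set were named, where outside that rule, after their values were seen.

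Alternatives were other pseudocounts and minimum means, re-centring, equal totals, all statuses, short RNA kept, no X or Y genes, 1.5-fold, intervals without 0, the linear scale and lists without their largest member. Removal of a trend on length and GC content, of genes sharing a locus and of genes listed at 0 were chosen after seeing the data. Positions came from GENCODE M21 and promoters from RefSeq. Python 3.11.15, numpy 2.4.6, pandas 2.3.3, scipy 1.17.1, statsmodels 0.14.6 and matplotlib 3.10.9 were used.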

Additional observations from a re-analysis of the deposited data

Results flagged for a closer look

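In 5 genes stabilization went with a level at least 1.5-fold higher in one Ndp background and at least 1.5-fold lower in the other. With 1 library per group this difference was not tested. The differences of differences were -1.64 for Clcf1, 3.71 for Klk1b22, 5.86 for Rps27, 3.35 for 1810007I06Rik and 1.57 for 1810035I16Rik. The antisense gene 1810007I06Rik was at 1.95 FPKM in WT, 0.254 in stabilized, 0.201 in the knockout and 1.70 in the stabilized knockout. The antisense gene 1810035I16Rik was at 12.3, 6.34, 3.98 and 6.6 FPKM in the same order. Both share their deposited locus with another gene, and the labels name no strand setting.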

How the results depend on the processing

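Beside 31 higher and 15 lower genes past 2-fold, a pseudocount of 0.1 gave 54 and 26, and a pseudocount of 1 gave 20 higher. A minimum mean of 5 FPKM gave 12 and 8, no minimum 54 and 32, short RNA symbols kept 129 and 83, and 1.5-fold 167 and 80. Leaving out genes that share a locus, chosen after seeing the data, gave 15 and 7. The barrier median of 0.18 became 0.40 with a pseudocount of 0.1, 0.08 with 1, 0.32 with a minimum mean of 0.5 FPKM and 0.03 with 5. With the minimum of 5 the medians were 0.14 for fenestrated and tip-cell genes, -0.31 for basement membrane, -0.24 for mural, -0.15 for gliosis, 0.26 for microglia, -0.57 for pigment epithelium and 0.01 for proliferation. Without a minimum they reversed to 0.06 for mural, 0.04 for BMP and TGF-beta and -0.04 for erythroid genes, and were 0.21 for microglia, -0.31 for pigment epithelium and -0.01 for interferon genes. Removing the length and GC trend gave 0.10 for erythroid genes. Fewer or more genes entered under the minimum means. The cause of the other shifts was not tested. Rescaling moved the median of all genes from 0.05 to 0.00 when re-centred and -0.03 at equal totals. Under the alternatives on the log2 scale, 7 values of named genes moved beyond the combined interval. Of 57 named genes, 4 changed sign in a setting, all under 1.5-fold as reported. Slco1c1 went from 0.23 to -0.03 with a pseudocount of 1 and -0.934 FPKM on the linear scale, Xist from 0.07 to -0.01 at equal totals, and on the linear scale Ddx3y was at 1.33 and Hba-a1 at 9.34 FPKM. Cldn5 ran from 2.04 to 2.96 over the pseudocounts. No paired analysis was possible because each group has 1 library, and for the same reason no library could be left out. Genes of 1 to 2 FPKM had a central 95% of -0.56 to 0.74, wider than that of all genes, and the cause was not tested.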

Other observations

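Of the lists not yet described, 10 had medians between -0.15 and 0.15. Proliferation genes stood at 0.15 over 11, immediate early genes at -0.10 over 10, clock and dopamine genes at -0.07 over 14, interferon genes at -0.15 over 6, astrocyte genes at 0.08 over 7, horizontal cell genes at 0.03 over 7, amacrine genes at -0.01 over 14, cone genes at 0.11 over 12, oligodendrocyte genes at 0.07 over 3 and sex-linked genes at 0.02 over 8. The erythroid list held 6 genes with a median of 0.20, of which Hba-a1 was at 42.1 FPKM in WT, 99.8 in stabilized, 51.5 in the knockout and 119 in the stabilized knockout. Hbb-b2 and Hbb-b1, near-identical globin copies, stood at -1.79 and 0.65. The lens and the fibroblast and ocular surface lists had 2 measured genes each, with medians of 0.51 and 0.24. Summed, the 2 lens genes were at 24.4 FPKM in WT, 18.2 in stabilized, 22 in the knockout and 23 in the stabilized knockout. The part that carried-over lens has in other genes was not tested.

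The enzyme gene Hsd17b2, which oxidizes sex steroids, was at 1.23 FPKM in WT, 0.241 in stabilized, 1.79 in the knockout and 1.56 in the stabilized knockout, or 1.08 [0.35 to 1.77]. Cthrc1, a secreted collagen repeat protein, was at 2.29, 0.940, 1.49 and 1.69 FPKM in the same order, or 1.09 [0.29 to 1.89]. Both were lowest in the stabilized library, and both were named after their values were seen.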
